A study of Mus musculus with 12 samples.

Results

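Chemokine ligands are small secreted or membrane-bound proteins that direct the movement of leukocytes, and the genes described here are the 37 of 45706 listed genes whose symbol is Ccl, Cxcl or Cx3cl followed by a number and at most 1 letter. Their RNA was measured in BN1-Tie2-EGFP cells, a murine hepatoblastoma (HB) line grown from a tumor of FVB mice that was driven by mutant β-catenin (B) and mutant NRF2 (N). Every group comes from this line, with its Crispr/Cas9-induced disruption of Cdkn2a and an EGFP reporter under the endothelial Tie2/Tek promoter. Stable transfectants rather than a freshly derived tumor were the starting material. The paper found a mixture of Cdkn2a mutations in each line, and which of them the sorted cells carry is not given. UN cells were unsorted monolayers in normoxia (21% oxygen), UH cells were the same unsorted cells after 2 days in 1% oxygen, SN cells were the brightest EGFP-positive cells sorted after hypoxia and then expanded for about 10 days in normoxia, and SH cells were SN cells put back into 1% oxygen for 2 days. Each group had 3 libraries. Levels are given as TPM (transcripts per 1000000), a unit that is corrected for transcript length and sums to 1000000 in each library, so levels of different genes can be set side by side. The sequencing depth behind a TPM value is unknown, and precision rests on the spread between the 3 libraries. The libraries of a group are described as independent replicas, without saying whether these were separate cultures, so the p-values measure the spread between these samples.

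Chemokines are grouped by the spacing of their first cysteines into the CXC, CC and CX3C classes, and each binds G protein-coupled receptors on the cells that it attracts. CXC ligands of the Cxcl1 kind draw neutrophils through CXCR2, CC ligands of the Ccl2 kind draw monocytes through CCR2, and Cxcl10 and Cxcl11 draw activated T cells and NK cells through CXCR3. In liver, hepatocytes, stellate cells, Kupffer cells and endothelial cells can all secrete them, and many of their genes are known targets of NF-κB, of interferon signalling or of both.

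The genes sit in a few clusters. By the GENCODE M21 annotation of GRCm38, 12 ligands lie on chromosome 11, 11 on chromosome 5, 5 on chromosome 4, 4 on chromosome 8, 2 on chromosome 13 and 1 each on chromosomes 1, 6 and 7. All are annotated as protein coding except Cxcl11, a polymorphic pseudogene in this annotation. The stretches of DNA just upstream of Cxcl1, Cxcl2, Cxcl3 and Cxcl10 are shown because all 4 genes were lower in hypoxia in at least 1 of the cell populations and share a motif. They are RefSeq sequences of GRCm38.p6, read 5′ to 3′ on the strand of the gene, and the last base printed is the one before the RefSeq start of the gene. Capitals mark the letters of a κB motif, and in Cxcl10 also those of an interferon element. The Cxcl1, Cxcl2 and Cxcl3 stretches are on the plus strand, at chr5:90891115-90891244, chr5:90903769-90903898 and chr5:90785971-90786100. The Cxcl10 stretch is on the minus strand, at chr5:92348890-92349119.
Cxcl1: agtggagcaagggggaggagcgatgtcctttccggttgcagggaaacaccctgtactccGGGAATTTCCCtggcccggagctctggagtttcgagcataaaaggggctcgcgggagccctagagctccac
Cxcl2: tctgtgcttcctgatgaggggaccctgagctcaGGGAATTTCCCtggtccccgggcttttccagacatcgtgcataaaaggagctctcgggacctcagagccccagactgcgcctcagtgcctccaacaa
Cxcl3: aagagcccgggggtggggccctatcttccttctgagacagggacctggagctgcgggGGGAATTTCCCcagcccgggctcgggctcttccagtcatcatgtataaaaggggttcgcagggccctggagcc
Cxcl10: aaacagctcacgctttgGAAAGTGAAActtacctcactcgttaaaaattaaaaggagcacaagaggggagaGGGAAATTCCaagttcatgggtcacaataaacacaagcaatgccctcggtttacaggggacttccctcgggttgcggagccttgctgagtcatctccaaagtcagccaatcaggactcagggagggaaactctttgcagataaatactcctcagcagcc

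The κB letters searched, on both strands, were GGGA followed by any base and TTTCC, or GGGAA followed by any base and TTCC, in windows from 250 bases before to 50 bases after a RefSeq gene start. In Cxcl1, Cxcl2 and Cxcl3 the matches of both patterns and both strands overlap into a single run of letters. Of the 26 ligands with a window in the RefSeq table, 5 held a κB match (the 4 above and Ccl1), compared with 0.661% of all 32851 windows. The ligand counts are per gene and the shares per window, and a gene can have more than 1 window. Of the 14 ligands called lower in UH vs UN below, Cxcl1, Cxcl2 and Cxcl10 had a match. How many of the 14 have a window is not given here, so this is not a share of ligands searched. The interferon element (GAAA, any 2 bases and GAAA) was found for 3 ligands (Cxcl10, Cxcl14 and Ccl19) and in 3.44% of all windows. The core letters of the hypoxia response element, ACGTG, occurred for 4 of the 26 ligands and in 19.6% of all windows, and the AP-1 letters TGANTCA for 6 ligands and in 7.81% of all windows. A match is a description of the letters and says nothing of binding.

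UN replicate 1 stood apart from the other two UN libraries. Across genes, which are not independent replicates, its Pearson's r with them was 0.977 and 0.978 while theirs with each other was 0.990, and it held more Col1a1 (1186 TPM against 499 and 428) and more Adm (22.2 TPM against 1.45 and 1.22). Calls that changed without UN replicate 1 are given beside the ligand concerned. SH replicate 3 also differed from SH replicates 1 and 2. Its Adm was at 8.43 TPM against 30.6 TPM in both of them. Its r with the SN libraries was 0.955 to 0.960, against 0.943 to 0.949 for SH replicates 1 and 2. Of 7 known hypoxia-related genes, Adm, Ndrg1, Vegfa and Pgk1 were called higher after hypoxia in both unsorted and sorted cells. Hif1a, Epas1 and Car9 were called in neither population. SH cells were called lower than UH cells for Adm, Epas1, Car9 and Hif1a, and higher for none of the 7. Mean Adm was 23.2 TPM in SH against 130 TPM in UH libraries, and mean Car9 was 0.0366 against 1.22 TPM. Epas1 was also called lower in SN vs UN. Cdkn2a RNA was present in all 4 groups (66.4 to 327 TPM in unsorted and 7.37 to 16.5 TPM in sorted libraries), and no group without the Cdkn2a disruption was analysed here. Among the leukocyte markers, the pan-leukocyte gene Ptprc reached at most 0.121 TPM, and Cd3e, Nkg7, Adgre1 and Itgam at most 0.717 TPM. The 4 highest were Lyz2 (0.282 to 1.87 TPM), Csf1r (1.72 to 7.47 TPM), Cd68 (2.63 to 55.9 TPM) and Cd14 (23.6 to 330.1 TPM), and the summed list was 88.5 to 117 TPM in UN, 46.3 to 49.8 TPM in UH, 304 to 345 TPM in SN and 126 to 136 TPM in SH libraries. The 12 hepatoblast and hepatocyte markers were uneven. Krt18 was at 63.5 to 157 TPM in every library, and Krt8, Dlk1 and Trf reached 84.9, 83.8 and 61.4 TPM, whereas Alb reached at most 4.23 TPM, Afp 9.80 TPM and Epcam 0.310 TPM. The 9 endothelial markers summed to 0.719 to 9.87 TPM, with Tek, the gene whose promoter drives the reporter, at 2.07 to 3.29 TPM in sorted and 0.0853 to 0.226 TPM in unsorted libraries.

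Of the 37 ligands, 22 were expressed in at least 1 group, taken as a group mean of at least 1 TPM, and 14 were expressed in all 4 groups. The number expressed was 21 in UN, 15 in UH, 18 in SN and 17 in SH. Another 4 ligands (Ccl21a, Ccl21b, Ccl26 and Ccl27b) were listed at 0 in all 12 libraries. Of their 31-base runs, Ccl21a shares 80.6% and Ccl21b and Ccl27b share 100% with other genes, so these zeros may depend on how reads were assigned. The 9 ligands Ccl1, Ccl4, Ccl6, Ccl12, Ccl19, Ccl22, Ccl24, Cxcl9 and Cxcl13 were above 0 in some library but had a mean under 0.1 TPM, with a highest single value of 0.350 TPM (Ccl4). Tests therefore covered 24 ligands, among them Ccl28 and Cxcl17, which never reached a group mean of 1 TPM.

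**Figure D1:**
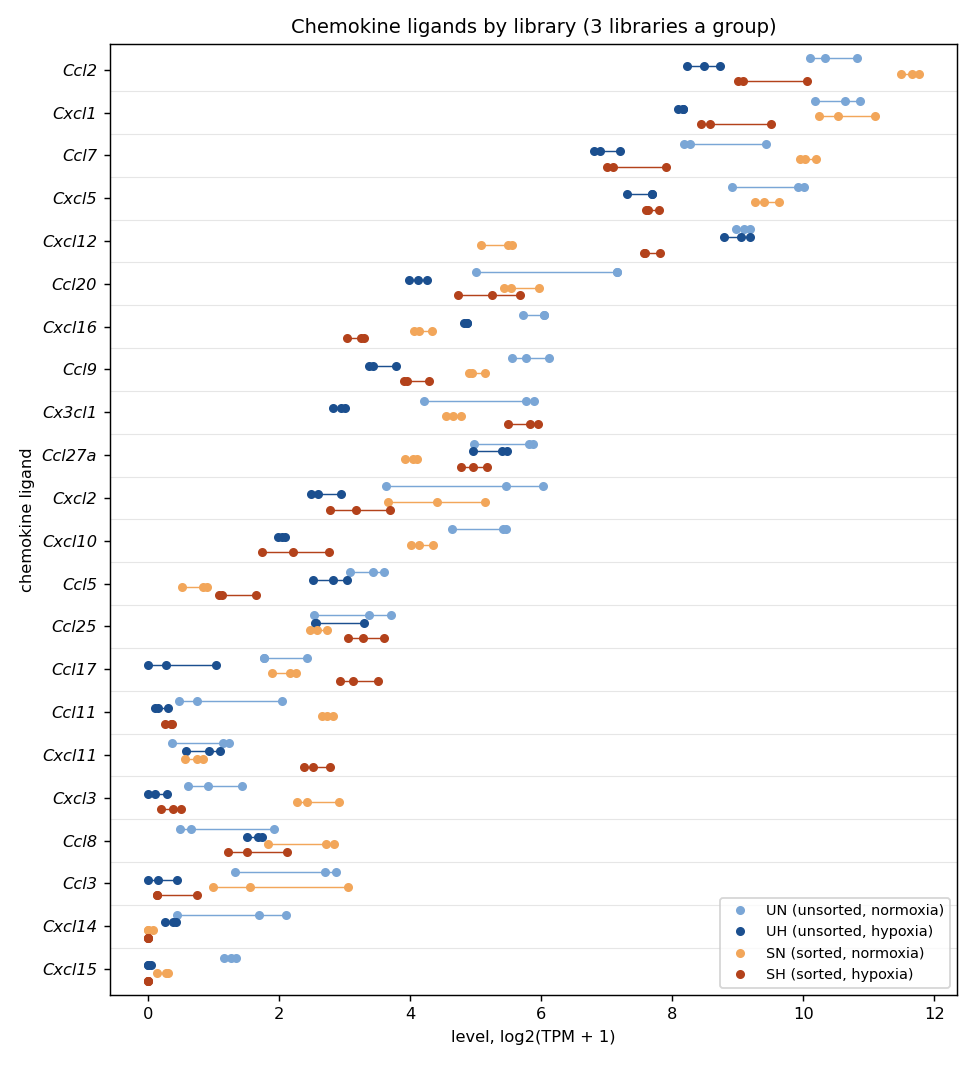
Level of each of the 22 expressed ligands in log2(TPM + 1) (x axis), with 1 point per library, a line from the lowest to the highest of the 3 libraries of a group, and ligands ordered by their highest group mean. Ccl2 in SN cells was the highest group (3191 TPM), the dark blue UH points lie left of the light blue UN points for most ligands, and the SN points of Cxcl12 lie apart from those of the other groups at 32.7 to 45.7 TPM.

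The output was dominated by a few genes. Ccl2, Cxcl1, Ccl7, Cxcl5 and Cxcl12 made up 88.0% to 97.1% of all ligand TPM in every library. The summed TPM of the 37 ligands was 4857, 5112 and 5456 in the UN libraries and 1558, 1552 and 1669.6 in the UH libraries. It was 6536, 6616 and 7290.5 in the SN libraries and 1568, 1606 and 2651 in the SH libraries. All normoxic libraries were thus above all hypoxic ones, and the sorted normoxic libraries were the highest. Ccl2 ranked between 25 and 33 among all genes in SN cells and between 336 and 461 in UH cells. The make-up also differed between groups. Cxcl12 held 10.03% to 11.3% of the sum in UN libraries, 28.3% to 34.7% in UH libraries, 0.448% to 0.699% in SN libraries and 8.38% to 12.1% in SH libraries. In bulk RNA, fewer cells that express a gene and less of its RNA per cell cannot be told apart, here and in every result that follows.

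**Figure D2:**
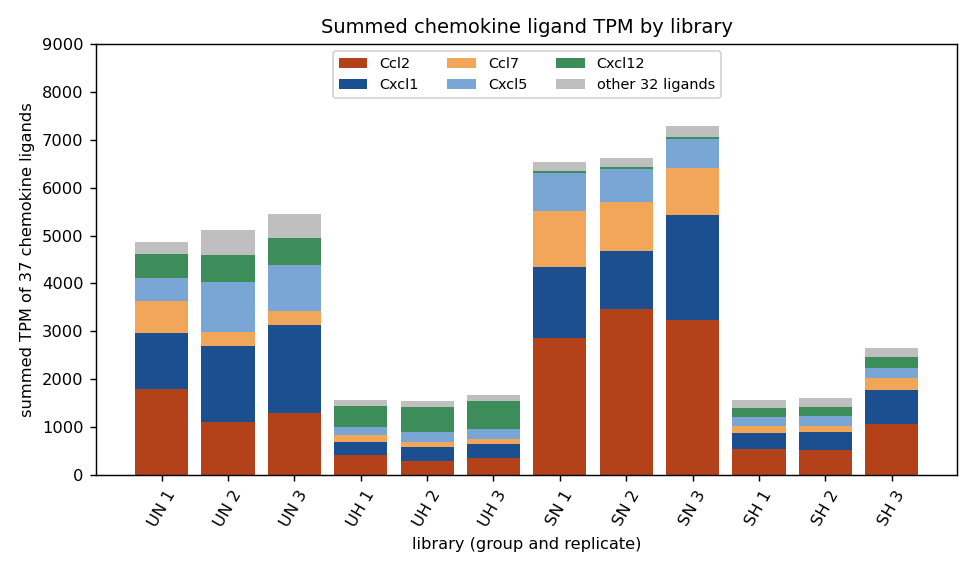
Summed TPM of the 37 ligands (y axis, from 0) in each of the 12 libraries (x axis), split into the 5 most abundant ligands and the other 32. The hypoxic bars (UH and SH) end between 1552 and 2651 TPM, below the normoxic ones at 4857 to 7290.5 TPM, and the green Cxcl12 part is thinnest in SN libraries.

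Groups were compared by limma fits of log2(TPM + 1) over 18909 genes. Calls required both an absolute log2 fold change above 1 and a Benjamini-Hochberg adjusted p under 0.05, and SE stands for the standard error. The added 1 makes the log2 fold changes of ligands at a few TPM smaller than the ratio of their means. In unsorted cells, hypoxia (UH vs UN) lowered 14 of the 24 tested ligands and raised 0, compared with 11.8% of all tested genes called lower and 5.46% called higher (17.2% in either direction). The limma count of 0 higher ligands was also 0 at an unadjusted p under 0.05, and 1 ligand, Ccl8, was called higher without UN replicate 1. The median log2 fold change was −1.16 over the tested ligands and −0.19 over all tested genes. Median-of-ratios scaling moved the latter to 0 and left 12 ligands lower. In sorted cells, hypoxia (SH vs SN) lowered 8 ligands and raised 4, against 5% and 7.47% of all tested genes (12.5% in either direction). There the median was −0.63 over the ligands and 0.03 over all genes.

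Sorted cells differed from unsorted ones by the selection for EGFP, the earlier hypoxia and the expansion. These cannot be told apart here or wherever sorted and unsorted cells are compared. Comparing the normoxic groups, SN vs UN, gave 5 higher and 7 lower ligands, where 3.2% and 7.57% of all tested genes were called (10.8% in either direction), with medians of −0.52 and −0.06. Between the hypoxic groups, SH vs UH, 3 ligands were higher and 3 lower, where 7.65% and 5.35% of all tested genes were called (13% in either direction), with medians of 0.21 and 0.17. The 2 responses to hypoxia were compared by the interaction (SH − SN) − (UH − UN), in which a positive value means a response that was higher or less negative in sorted cells. It was called for 11 ligands, 9 positive and 2 negative, against 8.08% and 2.18% of all tested genes (10.3% in either direction). Here the scaling mattered, because the median interaction of all genes was 0.25 with TPM as deposited and 0.02 with median-of-ratios scaling. The latter gave 5 positive and 2 negative ligands, and quantile normalization 5 positive and 3 negative. Leaving out UN replicate 2 gave 6 positive and 1 negative, and leaving out UN replicate 1 gave 12 positive and 4 negative.

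**Figure D3:**
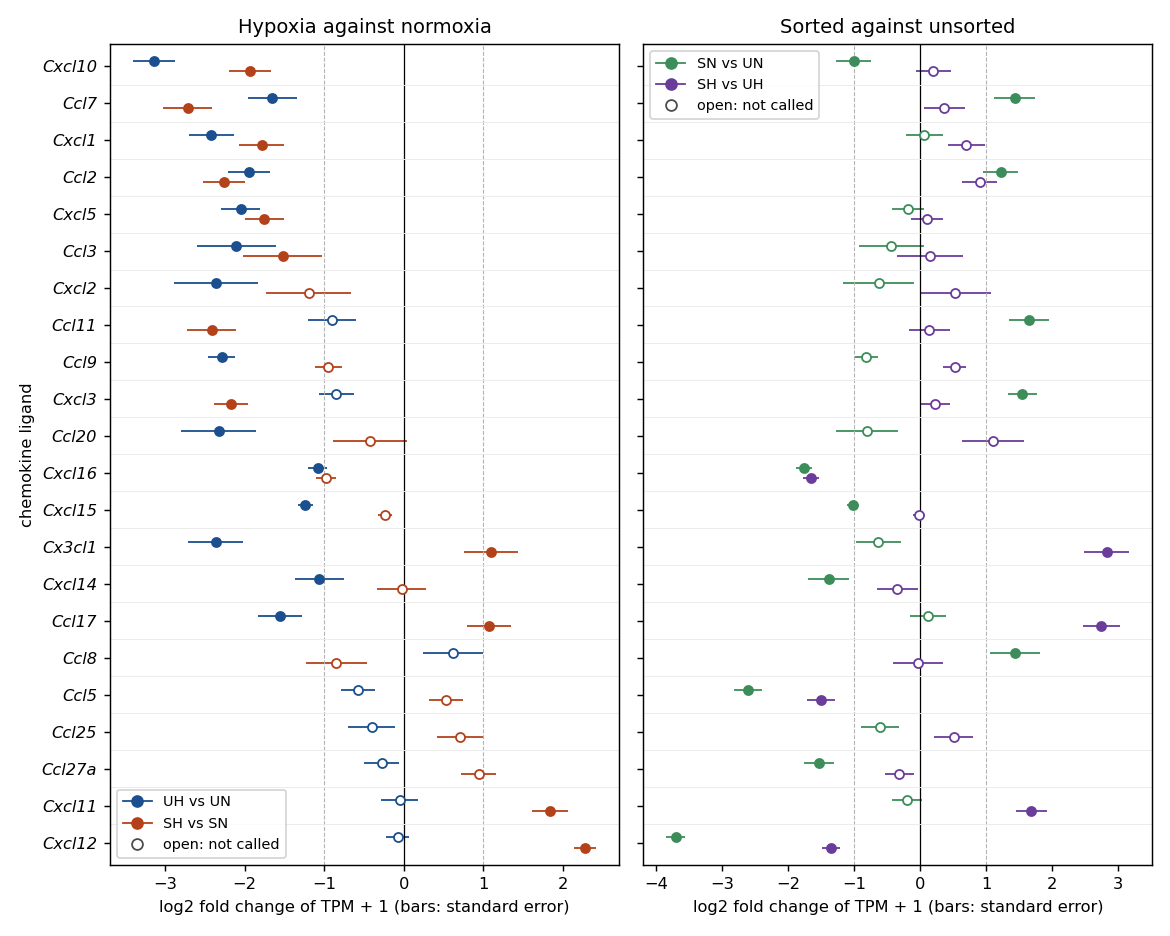
Log2 fold change of TPM + 1 (x axis) with its standard error from limma for the 22 expressed ligands. The left panel sets hypoxia against normoxia in unsorted and sorted cells, the right panel sorted against unsorted cells in normoxia and hypoxia, filled points are called, and dashed lines mark −1 and 1. In the left panel Cx3cl1 and Ccl17 have a filled point on either side of 0, and in the right panel Cxcl12 lies farthest to the left (−3.71 in SN vs UN).

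Among the CXC ligands, Cxcl12 had the highest mean in UH cells (516 TPM against 280 TPM for Cxcl1). In UN, SN and SH cells the highest was Cxcl1, a neutrophil attractant of the CXCR2 group. Cxcl1 (ENSMUSG00000029380), the main murine neutrophil chemoattractant of this kind, was at 1155, 1586 and 1852 TPM in UN libraries, 269, 286 and 285 TPM in UH libraries, 1473, 1202 and 2190.1 TPM in SN libraries and 345, 379 and 722 TPM in SH libraries. Both hypoxic groups were below both normoxic groups with no overlap. The log2 fold change was −2.42 (SE 0.28, limma adjusted p = 3.18e-05) in UH vs UN and −1.78 (SE 0.28, limma adjusted p = 0.000407) in SH vs SN. In SN vs UN the difference was 0.06 (limma adjusted p = 0.902) and its direction turned without UN replicate 1 (−0.13) or SN replicate 3 (−0.18).

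Cxcl5, a neutrophil attractant abundant in epithelia, was at 478, 1029.8 and 969 TPM in UN libraries, 157, 206 and 206 TPM in UH libraries, 791, 672 and 610.0 TPM in SN libraries and 193, 197 and 221 TPM in SH libraries. Here too the lowest normoxic library was above the highest hypoxic one. Its log2 fold changes were −2.05 in UH vs UN (limma adjusted p = 3.55e-05) and −1.75 in SH vs SN (limma adjusted p = 0.00016). Cxcl2, a close relative of Cxcl1, had 11.4, 43.0 and 63.8 TPM in UN libraries, 5.05, 4.61 and 6.67 TPM in UH libraries, 20.2, 11.6 and 34.4 TPM in SN libraries and 7.97, 5.84 and 11.9 TPM in SH libraries. It was lower in UH vs UN (−2.36, limma adjusted p = 0.0033). In sorted cells its groups overlapped, and the log2 fold change of −1.20 missed the threshold (limma adjusted p = 0.0958), though it passed without UN replicate 1 (adjusted p = 0.018). Without that library Cxcl2 was also called lower in SN vs UN (−1.33, adjusted p = 0.021, against −0.63 and 0.406 with it), and its interaction was called (1.87, adjusted p = 0.021, against 1.16 and 0.289).

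Cxcl3, the least abundant of the 3 genes that share the κB run printed above with Cxcl1 and Cxcl2, had its highest level in sorted normoxic cells. It was at 1.68, 0.518 and 0.877 TPM in UN libraries, 0.0733, 0 and 0.218 TPM in UH libraries, 4.33, 3.82 and 6.49 TPM in SN libraries and 0.142, 0.414 and 0.304 TPM in SH libraries. The SN libraries were above all others. It was called higher in SN vs UN (1.55, limma adjusted p = 0.000239) and lower in SH vs SN (−2.17, limma adjusted p = 1.67e-05), and its fall in UH vs UN stayed short of the fold threshold (−0.85, limma adjusted p = 0.00733). The ratio of means was 10.6-fold from UN to UH and 17.0-fold from SN to SH, and the fall in UH vs UN was called with a pseudocount of 0.1 (−2.54) or without UN replicate 2 (−1.04). Cxcl15, also called lungkine, was at 1.51, 1.41 and 1.22 TPM in UN libraries, between 0 and 0.232 TPM in the UH and SN libraries and at 0 in all SH libraries. It was called lower in UH vs UN (−1.23, limma adjusted p = 1.03e-06) and in SN vs UN (−1.02, limma adjusted p = 7.47e-06), and the latter call fell below the fold threshold without SN replicate 1 (−0.96) or UN replicate 1 (−0.98) and with median-of-ratios scaling (−0.93) or quantile normalization (−0.81). Cxcl2 and Cxcl3 share 7.59% and 5.46% of their 31-base runs with other genes, mostly each other, so reads in those stretches could have been divided between them. The non-matching relative Ppbp, another CXCR2 ligand, had its highest level in SN cells as well, at 58.3, 59.8 and 27.4 TPM against 4.49 to 5.31 TPM in UN libraries, 0.680 to 0.92 TPM in UH libraries and 6.52 to 8.62 TPM in SH libraries.

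Among the CC ligands, Ccl2 and its neighbour Ccl7, both monocyte attractants, were the most abundant. Ccl2 (ENSMUSG00000035385) was at 1801, 1100.2 and 1284 TPM in UN libraries, 421, 296 and 356 TPM in UH libraries, 2860.5, 3473 and 3241 TPM in SN libraries and 539, 513 and 1057 TPM in SH libraries. The 3 SN libraries were the highest of the series and did not overlap with UN, and all hypoxic libraries were below all normoxic ones. Mean levels fell 3.90-fold from UN to UH and 4.54-fold from SN to SH. The log2 fold changes were −1.94 (SE 0.26, limma adjusted p = 9.37e-05) in UH vs UN, −2.26 (SE 0.26, limma adjusted p = 4.76e-05) in SH vs SN and 1.22 (SE 0.26, limma adjusted p = 0.00396) in SN vs UN. In SH vs UH Ccl2 was 0.90 higher on the log2 scale (limma adjusted p = 0.0165), which passed the fold threshold without SH replicate 1 or 2 (1.05 and 1.09) or UH replicate 1 (1.03). The interaction was −0.32 (limma adjusted p = 0.567). Cd14, one of the leukocyte markers, had the same order of group means and was called in each pair. It was lower in hypoxia at −1.74 in unsorted and −2.16 in sorted cells. In sorted against unsorted cells it was higher, at 1.80 in normoxia and 1.38 in hypoxia. Other leukocyte markers went the other way in hypoxia. Cd68 and Csf1r were called higher in UH vs UN, and Cd68 was called higher in SH vs SN. Mean Cd68 was 3.09 TPM in UN, 13.4 TPM in UH, 7.88 TPM in SN and 53.9 TPM in SH libraries. In sorted against unsorted cells Cd68 was called higher, as Cd14 was. The part of Cd14 in the levels of Ccl2 was not tested.

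Ccl7 (ENSMUSG00000035373) was at 686, 306 and 287 TPM in UN libraries, 146, 111 and 118 TPM in UH libraries, 1173, 1035 and 984 TPM in SN libraries and 128, 136 and 238 TPM in SH libraries. Its order of groups was that of Ccl2, with SN above UN and both hypoxic groups overlapping below. It was called lower in UH vs UN (−1.65, limma adjusted p = 0.000991) and SH vs SN (−2.72, limma adjusted p = 3.98e-05) and higher in SN vs UN (1.43, limma adjusted p = 0.00394). UN replicate 1 was the highest of its group for Ccl2 and Ccl7, and without it SN vs UN was 1.42 for Ccl2 and 1.84 for Ccl7. The interaction for Ccl7 was −1.07 (limma adjusted p = 0.102) and was called without UN replicate 1 (−1.47) or SH replicate 3 (−1.35).

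Ccl11, or eotaxin, an eosinophil attractant whose gene follows Ccl7 on the chromosome, had the same order of groups at much lower levels. It was at 3.09, 0.385 and 0.666 TPM in UN libraries, 0.0681, 0.230 and 0.101 TPM in UH libraries, 6.05, 5.63 and 5.26 TPM in SN libraries and 0.264, 0.192 and 0.281 TPM in SH libraries. The SN libraries were above all others. Ccl11 was called higher in SN vs UN (1.65, limma adjusted p = 0.00149) and lower in SH vs SN (−2.41, limma adjusted p = 8.41e-05), with a 23.0-fold ratio of means between SN and SH. The fall in UH vs UN was −0.90 (limma adjusted p = 0.0302) and passed the fold threshold without UN replicate 2 (−1.21) or 3 (−1.07) or with a pseudocount of 0.1 (−2.24), and the ratio of means was 10.4-fold. Ccl8, another monocyte attractant of this cluster, was at 2.77, 0.404 and 0.571 TPM in UN libraries, 2.31, 2.21 and 1.84 TPM in UH libraries, 5.52, 2.55 and 6.15 TPM in SN libraries and 1.84, 1.32 and 3.32 TPM in SH libraries. The groups overlapped in every comparison. It was called higher in SN vs UN (1.44, limma adjusted p = 0.0122), a call lost without SN replicate 3 (adjusted p = 0.051) or UN replicate 2 (0.056) or 3 (0.052), without a filter on low values (0.066) or with only the UN and SN libraries in the fit (0.068). Without UN replicate 1 it was also called higher in UH vs UN (1.07, limma adjusted p = 0.016), with a called interaction (−1.91, against −1.47 with that library), and without SN replicate 2 it was called lower in SH vs SN (−1.16). The remaining 2 genes of this neighbourhood, Ccl12 and Ccl1, had means under 0.1 TPM.

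**Figure D4:**
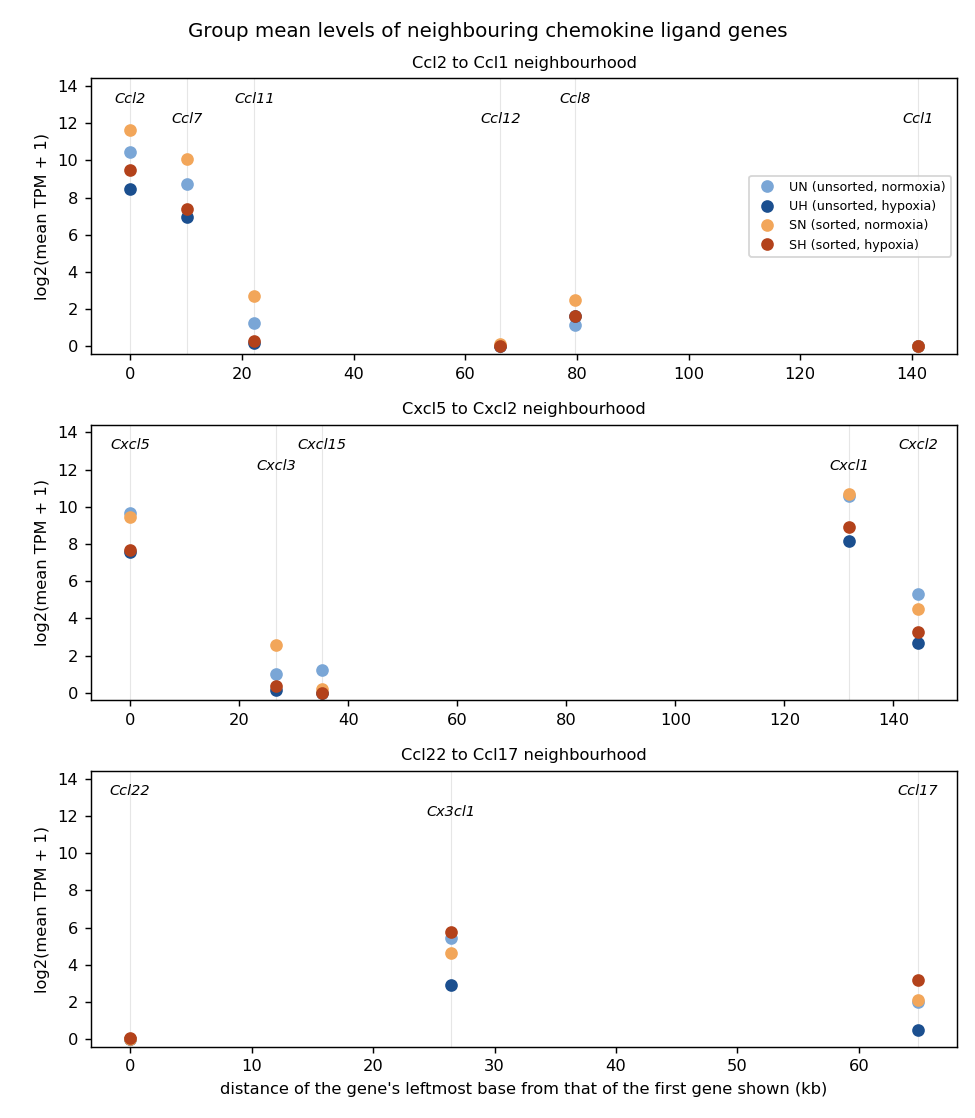
Group means as log2(mean TPM + 1) (y axis) of neighbouring ligand genes against the distance of each gene from the first gene of its neighbourhood in kb (x axis), for 3 gene neighbourhoods. Orange SN points are the highest at Ccl2, Ccl7, Ccl11, Ccl8 and Cxcl3, whereas at Cx3cl1 and Ccl17 the highest points are the red SH ones (53.4 and 8.19 TPM).

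The second CC cluster on chromosome 11 holds Ccl9, Ccl3 and Ccl5, inflammatory ligands that act mainly on monocytes and T cells. Ccl9 was at 45.7, 68.6 and 53.2 TPM in UN libraries, 9.33, 9.74 and 12.7 TPM in UH libraries, 29.8, 34.4 and 28.7 TPM in SN libraries and 14.0, 14.5 and 18.4 TPM in SH libraries. No 2 of the 4 groups overlapped. It was lower in UH vs UN (−2.29, limma adjusted p = 1.04e-06), and the fall in SH vs SN (−0.95, limma adjusted p = 0.000882) stayed short of the fold threshold but passed it without SH replicate 3 (−1.06). The interaction was called (1.34, limma adjusted p = 0.0028).

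Ccl3 was at 1.5, 5.5 and 6.26 TPM in UN libraries, 0.103, 0.350 and 0 TPM in UH libraries, 0.976, 1.92 and 7.26 TPM in SN libraries and 0.0992, 0.0968 and 0.680 TPM in SH libraries. Hypoxic libraries were below normoxic ones in both populations, with a wide spread in SN cells. It was called lower in UH vs UN (−2.10, limma adjusted p = 0.00432) and in SH vs SN (−1.52, limma adjusted p = 0.0285), and the latter call was lost without SN replicate 3 (−0.92, adjusted p = 0.11) or without SH replicate 1 (adjusted p = 0.085) or 2 (adjusted p = 0.084), without a filter on low values (0.12) and with only the SN and SH libraries in the fit (0.068). Ccl5, a T cell and monocyte attractant, was at 7.44, 11.05 and 9.77 TPM in UN libraries, 4.70, 6.06 and 7.21 TPM in UH libraries, 0.790, 0.866 and 0.431 TPM in SN libraries and 1.11, 2.13 and 1.19 TPM in SH libraries. Every sorted library was below every unsorted one. It was called lower in SN vs UN (−2.61, SE 0.21, limma adjusted p = 3.83e-06) and in SH vs UH (−1.51, SE 0.21, limma adjusted p = 0.000184).

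Ccl20, which attracts cells that bear CCR6, was at 31.1, 142 and 142 TPM in UN libraries, 14.8, 18.1 and 16.4 TPM in UH libraries, 42.2, 45.3 and 61.3 TPM in SN libraries and 25.6, 36.9 and 50.1 TPM in SH libraries. UH was the lowest group with no overlap, and UN replicate 1 was far below the other two. The fall in UH vs UN was −2.32 (SE 0.47, limma adjusted p = 0.00164) and −3.04 without UN replicate 1. Without that library Ccl20 was also called lower in SN vs UN (−1.52, adjusted p = 0.00058) and higher in SH vs UH (1.10, adjusted p = 0.0019), where the full set of libraries gave −0.80 (limma adjusted p = 0.223) and 1.10 (limma adjusted p = 0.0814). Its interaction was 1.90 (limma adjusted p = 0.0615) and was called without UN replicate 1 (2.62).

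Cxcl12, the ligand of CXCR4 that guides progenitor and endothelial cells, had a pattern unlike that of the other abundant ligands. It was at 498, 578 and 547 TPM in UN libraries, 441, 527 and 579.7 TPM in UH libraries, 45.7, 43.9 and 32.7 TPM in SN libraries and 190.2, 189 and 222 TPM in SH libraries. The unsorted groups overlapped, SN was far below every other group, and SH lay between SN and the unsorted cells without overlap. In SN cells the mean was 13.3-fold below that in UN cells, and in SH cells it was 4.92-fold above that in SN cells. The log2 fold changes were −3.71 (SE 0.14, limma adjusted p = 7.11e-09) in SN vs UN, −1.36 (SE 0.14, limma adjusted p = 1.79e-05) in SH vs UH and 2.28 (SE 0.14, limma adjusted p = 5.13e-07) in SH vs SN. The change in UH vs UN was −0.08 (limma adjusted p = 0.703), and its direction turned with median-of-ratios scaling (0.28) and without UH replicate 1 (0.03). The interaction was 2.36 (SE 0.20, limma adjusted p = 3.21e-05).

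Fibroblast and stellate cell markers also differed between sorted and unsorted cells. Their summed level over 9 genes was 5160.1 TPM in UN replicate 1 and 1176 and 1323 TPM in the other UN libraries, 4852 to 7134 TPM in UH libraries, 201 to 211 TPM in SN libraries and 56.5 to 77.8 TPM in SH libraries. Of the 8 tested, 5 were lower in SN vs UN (Col3a1, Col1a2, Col1a1, Pdgfra and Acta2), and 6 were lower and 1 higher in SH vs UH. Among all tested genes 7.57% were called lower in SN vs UN, and 5.35% lower and 7.65% higher in SH vs UH. In UH vs UN 3 of the markers were higher and 3 lower, against 5.46% and 11.8% of all tested genes. In SH vs SN 2 markers were higher (Des and Col1a1) and 3 lower, against 7.47% and 5%. The part of these markers in the levels of Cxcl12 and of the other ligands that were lower in sorted cells was not tested.

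Of the receptors of these ligands, 8 of 23 passed the filter on low values. The receptor with the most calls was Ackr3, which scavenges Cxcl12. It was at 28.5, 23.3 and 28.4 TPM in UN libraries, 29.7, 34.7 and 37.02 TPM in UH libraries, 5.52, 4.26 and 4.62 TPM in SN libraries and 15.5, 15.2 and 10.6 TPM in SH libraries. As with Cxcl12, the SN group was the lowest, SH lay between, and the test called it lower in SN vs UN (−2.26, limma adjusted p = 1.3e-06), lower in SH vs UH (−1.25, limma adjusted p = 9.3e-05) and higher in SH vs SN (1.33, limma adjusted p = 6.3e-05). Ccrl2 was higher in SH vs UH (1.49, limma adjusted p = 0.024), and in UH vs UN limma called 0 receptors, with 0 at an unadjusted p under 0.05. Cxcr4 ranged from 0.506 to 7.14 TPM and was not called in any comparison.

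The CXCR3 ligands Cxcl10 and Cxcl11, known for their induction by interferon, differed from each other. Cxcl10 was at 23.8, 43.1 and 41.8 TPM in UN libraries, 2.94, 3.10 and 3.24 TPM in UH libraries, 15.1, 16.6 and 19.3 TPM in SN libraries and 2.32, 3.60 and 5.79 TPM in SH libraries. Both hypoxic groups were below both normoxic groups. In UH vs UN its log2 fold change was the lowest of the tested ligands on the log2(TPM + 1) scale (−3.14, SE 0.26, limma adjusted p = 2.65e-06), an 11.7-fold ratio of means, whereas by that ratio Ccl3 (29.3-fold) and Cxcl15 fell further. In SH vs SN Cxcl10 fell by 1.93 (limma adjusted p = 0.000147). It was lower in SN vs UN at the edge of the threshold (−1.01, limma adjusted p = 0.0116), and that call was lost without SN replicate 1 (−0.93) or 2 (−0.996) or UN replicate 2 (−0.86) or 3 (−0.89), with median-of-ratios scaling (−0.89) or quantile normalization (−0.92), and without a filter on low values (adjusted p = 0.056).

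Cxcl11 was at 0.28, 1.36 and 1.21 TPM in UN libraries, 0.494, 0.904 and 1.13 TPM in UH libraries, 0.466, 0.677 and 0.786 TPM in SN libraries and 4.70, 5.82 and 4.19 TPM in SH libraries. The SH group alone stood above the others, which overlapped. It was called higher in SH vs SN (1.84, SE 0.23, limma adjusted p = 7.94e-05) and in SH vs UH (1.69, SE 0.23, limma adjusted p = 0.000143). Its exons share 41.7% of their bases with the opposite-strand pseudogene Gm2673, and the strand setting of the counting is not given in the sources used here, so the value may hold reads of both. Of the 16 genes of an interferon response list, 7 were lower in UH vs UN (Gbp3, Ifit3, Ifit1 and Ifit2 most), 2 were higher (Irf7 and Oasl2) and 2 lower (Ifit2 and Ifit3) in SH vs SN, 12 were lower in SN vs UN (Ifit1, Gbp2, Gbp3 and Ddx58 most), and 3 were lower in SH vs UH (Irf9, Ifit1 and Isg15). No gene of that list was called higher in the other 3 comparisons by limma, and at an unadjusted p under 0.05 there were 0, 0 and 1. No match to the interferon element printed for Cxcl10 was found for Cxcl11. Only 26 of the 37 ligands have a window, and Cxcl11 may lack one.

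The transmembrane chemokines Cx3cl1 and Cxcl16 are made as membrane-bound adhesion molecules and can be shed by Adam10 and Adam17. Cx3cl1 (ENSMUSG00000031778), the ligand of CX3CR1, was at 17.5, 58.1 and 53.6 TPM in UN libraries, 6.07, 6.71 and 7.01 TPM in UH libraries, 26.4, 24.1 and 22.2 TPM in SN libraries and 55.8, 60.5 and 43.9 TPM in SH libraries. Hypoxic libraries were below normoxic ones in unsorted cells and above them in sorted cells, with no overlap in either. The log2 fold changes were −2.37 (SE 0.34, limma adjusted p = 0.00015) in UH vs UN and 1.10 (SE 0.34, limma adjusted p = 0.0225) in SH vs SN. The interaction was 3.47 (SE 0.48, limma adjusted p = 0.000684), and SH vs UH was 2.83 (SE 0.34, limma adjusted p = 5.57e-05). The rise in SH vs SN missed the threshold without SH replicate 1 (adjusted p = 0.064) or 2 (0.075) or SN replicate 2 (0.055) or 3 (0.065), with log2 fold changes of 1.01 to 1.10, and without a filter on low values (0.10). It kept its call under the other alternatives, with a limma adjusted p as low as 6.79e-05. The fit shares its estimate of the spread over all 4 groups, among them UN, where replicate 1 stood apart. Without UN replicate 1, Cx3cl1 was called lower in SN vs UN (−1.17, adjusted p = 8.9e-05).

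Cxcl16, the ligand of CXCR6, was at 51.9, 64.4 and 64.4 TPM in UN libraries, 28.2, 27.1 and 28.2 TPM in UH libraries, 16.4, 19.0 and 15.5 TPM in SN libraries and 7.17, 8.51 and 8.77 TPM in SH libraries. No 2 groups overlapped, and the order was UN, UH, SN and SH. It was lower in SN vs UN (−1.76, limma adjusted p = 9.85e-07), in SH vs UH (−1.66, limma adjusted p = 1.27e-06) and in UH vs UN (−1.08, limma adjusted p = 2.43e-05), the last falling below the fold threshold with median-of-ratios scaling (−0.73) or quantile normalization (−0.78). Its change in SH vs SN lay just inside the fold threshold (−0.98, limma adjusted p = 7.74e-05) and passed it without SH replicate 2 (−1.01) or 3 (−1.03) or SN replicate 3 (−1.03) or with a pseudocount of 0.1 (−1.05). Of its exon bases, 18.3% overlap the opposite-strand gene Zmynd15. The sheddases Adam10 (55.5 to 121 TPM) and Adam17 (10.7 to 24.4 TPM) were not called in any comparison. Of the 9 shedding and trimming proteases, UH vs UN had 2 lower (Mmp9, −3.04, and Mmp13, −1.43) and 1 higher (Dpp4, 1.52), and SH vs SN had 1 lower (Mmp9, −2.60). In SN vs UN 1 was higher (Mmp9, 2.10) and 1 lower (Mmp2, −2.39), and in SH vs UH 1 was higher (Mmp9, 2.54) and 3 lower (Mmp2, Dpp4 and Ctsk). In that order of comparisons, 33.3%, 11.1%, 22.2% and 44.4% of the proteases were called. The shares of all tested genes were 17.2%, 12.5%, 10.8% and 13%.

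Ccl17, a ligand of CCR4 on T cells whose gene lies beyond Cx3cl1 on chromosome 8, showed the same opposite directions. It was at 2.39, 2.41 and 4.36 TPM in UN libraries, 0, 0.199 and 1.05 TPM in UH libraries, 3.49, 3.75 and 2.72 TPM in SN libraries and 7.67, 10.3 and 6.61 TPM in SH libraries. UH libraries were the lowest and SH libraries the highest, with no overlap with the other groups. It was lower in UH vs UN (−1.55, SE 0.28, limma adjusted p = 0.000717), higher in SH vs SN (1.08, SE 0.28, limma adjusted p = 0.00867) and higher in SH vs UH (2.75, SE 0.28, limma adjusted p = 1.45e-05), with an interaction of 2.63 (limma adjusted p = 0.00101). The call in SH vs SN lay near the fold threshold and fell below it without SH replicate 2 (0.92) or SN replicate 3 (0.97) and with quantile normalization (0.95), and with a pseudocount of 0.1 it was lost (1.27, adjusted p = 0.143). Ccl22, the other CCR4 ligand and the third gene of that neighbourhood, reached at most 0.0508 TPM.

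The remaining expressed ligands are mainly homeostatic ones that act in epithelia. Ccl27a was at 30.4, 55.2 and 57.5 TPM in UN libraries, 43.6, 41.1 and 30.1 TPM in UH libraries, 16.1, 14.1 and 15.5 TPM in SN libraries and 34.8, 29.9 and 26.4 TPM in SH libraries. SN was the lowest group with no overlap, and Ccl27a was lower in SN vs UN (−1.54, limma adjusted p = 0.000287) and 0.94 higher in SH vs SN (limma adjusted p = 0.00513), which passed the fold threshold without SH replicate 3 (1.04) or with quantile normalization (1.02). Its values are uncertain, since 57.0% of its 31-base runs occur in other genes, Gm20878, Gm13306 and Ccl27b foremost. Ccl25 was at 4.78, 9.35 and 11.96 TPM in UN libraries, 4.87, 4.83 and 8.80 TPM in UH libraries, 4.52, 4.98 and 5.63 TPM in SN libraries and 7.25, 11.04 and 8.67 TPM in SH libraries, and was not called in any pair of groups. Its interaction, 1.11 (limma adjusted p = 0.0749), was called without UN replicate 1 (1.45).

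Cxcl14 was at 0.350, 3.29 and 2.23 TPM in UN libraries and 0.189, 0.298 and 0.337 TPM in UH libraries, reached 0.0443 TPM in 1 SN library and was listed at 0 in the other SN and in all SH libraries. It was lower in UH vs UN (−1.06, limma adjusted p = 0.0142), a call lost without UN replicate 2 (−0.71) or 3 (−0.92), with median-of-ratios scaling (−0.92) or quantile normalization (−0.90), without a filter on low values (adjusted p = 0.082) and with only the UN and UH libraries in the fit (adjusted p = 0.11). The SN vs UN difference was also called lower (−1.39, limma adjusted p = 0.00469), a call lost with only those groups in the fit (adjusted p = 0.056), and its interaction was called without UN replicate 1 (1.53, against 1.04 with it). Ccl28 had group means of 0.988 TPM in UN libraries, 0.143 TPM in UH libraries, 0.897 TPM in SN libraries and 0.732 TPM in SH libraries. Its UH libraries were the lowest, at 0.106 to 0.183 TPM, and the change in UH vs UN was −0.78 (limma adjusted p = 0.000478) on the log2(TPM + 1) scale.

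The other pathway genes are given as counts, to be read against the shares of all tested genes above. Of 18 NF-κB subunits and regulators, all tested, limma called 1 lower and 0 higher in UH vs UN (Nfkbie, −1.11), with 4 higher and 7 lower at an unadjusted p under 0.05. It called 2 higher in SH vs SN (Traf2 and Tnip1), 2 higher in SN vs UN (Traf1 and Nfkb2) and 5 higher in SH vs UH (Traf1, Traf2, Nfkb2 and Nfkbie most). Of 11 tested inflammatory cytokines, 3 were higher and 3 lower in UH vs UN, and 1 was higher in SH vs SN. Against unsorted cells, sorted cells had 3 higher cytokines and 1 lower one in normoxia (SN vs UN) and 4 and 1 in hypoxia (SH vs UH). Il11 was higher in all 4 comparisons (1.31 to 3.25), and Il6 was the lower gene in SN vs UN (−1.79) and SH vs UH (−1.97). Csf2, a myeloid growth factor, was at 25.9, 107 and 135 TPM in UN libraries, 8.03, 7.84 and 8.58 TPM in UH libraries, 129, 112 and 232 TPM in SN libraries and 105, 148 and 159 TPM in SH libraries, and fell in UH vs UN (−3.004, limma adjusted p = 0.00036) with an interaction of 2.86 (limma adjusted p = 0.013). Mif, a cytokine that binds CXCR2 and CXCR4, was 1.77 higher on the log2 scale in UH vs UN (limma adjusted p = 8.1e-06). Of the 4 tested chemokine-like ligands outside the naming rule, 1 was higher and 2 lower in UH vs UN (Mif, Ppbp and Pf4), and Ppbp alone was called in SH vs SN (−2.44), SN vs UN (3.02) and SH vs UH (2.23).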

How the data were processed

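The authors processed paired-end reads of stranded mRNA libraries with nf-core/rnaseq 3.12.0, with mm10 named as genome build in the submitters' processing notes, and deposited gene-level TPM from Salmon. The annotation release and the strand setting are not given in the sources used here. The TPM carry no depth, so no counting error or detection floor could be given.

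Gene positions came from GENCODE M21 (GRCm38), which held 98.8% of the identifiers and all 37 ligands. TPM were analysed as log2(TPM + 1) for 18909 genes with a mean of at least 0.1 TPM. One model holding the 4 group means was fitted with limma 3.58.1 in R 4.3.3 (empirical Bayes moderation with a trend, two-sided), and adjusted p-values are Benjamini-Hochberg over all genes tested. A gene was called at an adjusted p under 0.05 and an absolute log2 fold change above 1. The fit was tested on simulated data. Promoter windows were read, shared 31-base runs counted and figures drawn with Python 3.11.15, pandas 2.3.3, numpy 2.4.6 and matplotlib 3.10.9.

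Ligands with a mean of at least 1 TPM in a group are named in full, and the rest by count and range. Of the other lists, the counts called are given with at most 4 members that changed most. Members, lists, motifs and tests were chosen with earlier results of these data known. Alternatives were other pseudocounts, filters and scalings, a replicate block, a fit of 2 groups alone, moderation without a trend, other expression thresholds and leaving out each library.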

Additional observations from a re-analysis of the deposited data

Results flagged for a closer look

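The interaction term of limma was called for 11 ligands, and each value is the response of sorted cells minus that of unsorted cells on the log2(TPM + 1) scale. For sorted cells this was a second exposure to hypoxia, after sorting and expansion. For Cx3cl1 the difference was 3.47 and for Ccl17 it was 2.63, since both fell in unsorted and rose in sorted cells. Cxcl12 (2.36) and Cxcl11 (1.89) rose in sorted cells and were not called in unsorted cells. Ccl9 (1.34) and Cxcl15 (1.00) were called lower in unsorted cells alone (Cxcl15 in both with a pseudocount of 0.1), and Cxcl10 (1.21) was called lower in both. Cxcl15 was already at 0.0908 to 0.232 TPM in SN libraries. On this scale a fall from there could not reach the fold threshold, so its interaction cannot show that the responses differed. Ccl27a (1.22) and Ccl5 (1.11) were called in neither response. The 2 negative differences were those of Ccl11 (−1.51) and Cxcl3 (−1.32), which were called lower in sorted cells alone with a pseudocount of 1. With a pseudocount of 0.1 both were called lower in unsorted cells too, and neither interaction was called (adjusted p = 0.124 for Ccl11 and 0.257 for Cxcl3).

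Leaving out single libraries ended some of these calls. The call of Cxcl10 was lost without any 1 of 10 of the 12 libraries, with adjusted p up to 0.096, and held without SH replicate 1 or UN replicate 1. The call of Ccl11 was lost without any 1 of 7 libraries (SH replicates 1 and 2, SN replicates 1 and 2, UH replicate 2 and UN replicates 2 and 3, with adjusted p up to 0.072), and that of Ccl5 without any 1 of 5 (SH replicate 2, SN replicate 3, UH replicate 1 and UN replicates 2 and 3, with adjusted p up to 0.061). Cxcl15 stayed under an adjusted p of 0.05 but fell below the fold threshold without SN replicate 1, UN replicate 1 or 2, or UH replicate 2 or 3, at 0.95 to 0.995. Scaling and filtering ended calls as well. With median-of-ratios scaling and with quantile normalization the interactions of Ccl27a (0.88 and 0.98), Ccl5 (0.79 and 0.46), Cxcl10 (0.92 and 0.93) and Cxcl15 (0.91 and 0.79) were no longer called. Without a filter on low values those of Ccl11, Ccl27a, Ccl5 and Cxcl10 were lost (adjusted p = 0.066 to 0.133), and with a pseudocount of 0.1 that of Cxcl10 (adjusted p = 0.051).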

How the results depend on the processing

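The numbers of ligands called in UH vs UN, SH vs SN, SN vs UN and SH vs UH stayed within 1.5 times of 14, 12, 12 and 6 under every alternative run, as did the numbers expressed in each group. The number called in the interaction, 11, was 7 without a filter on low values and 7 with median-of-ratios scaling, and ranged from 7 (without UN replicate 2) to 16 (without UN replicate 1) when single libraries were left out. Replicate numbers were not used to pair the samples, and how they were given is not stated. Deviations of same-numbered libraries correlated across genes at −0.116 to 0.141. These values cannot show whether the cultures were paired. The replicate block gave 14, 13, 12, 7 and 13 called ligands in the 5 comparisons.

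Reversals concerned values that were not called. With median-of-ratios scaling, UH vs UN became 0.075 for Ccl27a, 0.11 for Cxcl11 and 0.28 for Cxcl12, SH vs UH became −0.11 for Cxcl5, and the interaction became −0.23 for Cxcl16 and −0.050 for Cxcl5. With quantile normalization, UH vs UN became 0.038 for Ccl27a and 0.061 for Cxcl11, SN vs UN became 0.085 for Cxcl11, and the interaction of Cxcl16 became −0.16. With a pseudocount of 0.1, Cxcl11 in UH vs UN became 0.0040. Leaving out single libraries turned UH vs UN for Cxcl11 (−0.33 to 0.12) and Cxcl12 (−0.16 to 0.032), SN vs UN for Ccl3 (−1.03 to 0.0011), Cxcl1 (−0.18 to 0.26) and Cxcl5 (−0.54 to 0.014), and SH vs UH for Ccl3 (−0.057 to 0.27), Ccl8 (−0.28 to 0.17), Cxcl10 (−0.066 to 0.45) and Cxcl5 (−0.019 to 0.17). Without a filter, calls were lost for Cxcl14 in UH vs UN, Cx3cl1 and Ccl3 in SH vs SN, Ccl8 and Cxcl10 in SN vs UN, and Ccl11, Ccl27a, Ccl5 and Cxcl10 in the interaction. The log2 fold changes of these ligands were the same without the filter and their adjusted p-values were not. The cause was not tested. As a separate limit on all low TPM values, the depth is unknown.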
